A study of Homo sapiens and Mus musculus with 24 samples.

Results

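Peaks of BRG1 binding in fetal liver without hemogen were compared in shape with the wild-type (WT) peaks at the same positions. BRG1 is the ATPase of the BAF (SWI/SNF) complexes, which slide and evict nucleosomes at promoters and enhancers and are needed for red cell formation. Hemogen is a nuclear regulator found in blood-forming cells and active in erythroid development, and acetylated histone H3 lysine 27 (H3K27ac) marks active promoters and enhancers. The series holds 24 samples, of which 12 are mouse and 12 are human K562 cells. The members here are the 4 BRG1 immunoprecipitates of mouse fetal liver at embryonic day 14.5, chosen by antibody and genotype: 2 from WT and 2 from hemogen knockout (KO) livers. They are called WT 1, WT 2, KO 1 and KO 2 after the numbers in the sample titles. Both genotypes are given the same stage, tissue and antibody, and no treatment. How the KO allele was made, if livers were pooled and whether libraries came from separate embryos is not given in these sources, so the spread between libraries may be technical. Peak lists hold no expression values, so the KO label and the cell make-up of the livers were not checked.

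Each WT list was set against each KO list, which gives 4 pairs of lists. WT 1 against WT 2 served as the control pair, and KO 1 against KO 2 as a second one. Peaks counted as shared when they overlapped by 1 bp. Where 1 peak of each list overlapped only the other, the positions form single pairs, and width, summit and rank were compared on these. As a further control, a WT list was trimmed to its 3205 or 5592 most significant peaks, the lengths of the KO lists, and set against the other WT library. With 2 libraries per genotype the smallest p that an exact permutation test can give is 0.33, so this test could not pass a threshold of 0.05.

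Peaks in the KO lists were fewer and shorter. On chromosomes 1 to 19 and X, the lists held 26329 peaks in WT 1, 21165 in WT 2, 3205 in KO 1 and 5592 in KO 2. Median width was 377 bp in WT 1, 348 bp in WT 2, 250 bp in KO 1 and 280.5 bp in KO 2. Both KO medians lay below both WT medians. Peaks over 1 kb made up 13.9% and 10.3% of the WT lists, against 0.437% and 1.00% of the KO lists. The shortest peaks of the lists were alike at 187, 176, 172 and 191 bp. In all, WT peaks covered 15006 and 10634 kb and KO peaks 960 and 1900 kb.

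Depth moved with genotype. Fragment counts at summits, computed back from each peak's fold and p-value, came out whole within 0.02 for 100% of peaks in the 4 lists, and were unique for 93.2% in WT 1, 94.8% in WT 2, 91.5% in KO 1 and 94.2% in KO 2. Results on fragments rest on peaks with a unique count. Immunoprecipitate depth was 1.04 in WT 2, 0.404 in KO 1 and 0.341 in KO 2, relative to WT 1. The depth at which peaks were called was 0.860, 0.258 and 0.261 on the same scale. Depth and genotype cannot be told apart in these 4 libraries, and each result below carries this limit. Depth was lower in both KO libraries, whereas median fold enrichment over local background was 4.06 and 4.22 in WT and 4.46 and 4.55 in the KO. These medians are over whole lists, which hold different peaks. At single pairs the direction was the reverse, with 5.26 in WT 1 and 4.47 in KO 1, and 4.93 in WT 1 and 4.57 in KO 2. It was 4.87 in WT 2 and 4.45 in KO 1, and 4.66 in WT 2 and 4.52 in KO 2. Fold is the authors' value over each library's own background. Folds of different libraries are given below as descriptions, and only ranks within a list were compared.

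A minority of WT peaks had a KO peak. Of WT 1 peaks, 9.90% overlapped a peak of KO 1 and 16.7% a peak of KO 2, and 20.5% overlapped a peak of either. Of WT 2 peaks, 12.4% overlapped a KO 1 peak and 20.4% a KO 2 peak. Between the WT libraries, 58.4% of WT 1 peaks were found in WT 2 and 81.0% of WT 2 peaks in WT 1. The WT 2 list trimmed to the lengths of KO 1 and KO 2 held 14.0% and 22.8% of WT 1 peaks. Trimmed in the same way, WT 1 held 22.4% and 35.6% of WT 2 peaks. The shares found in the KO were thus below those found in a WT list of the same length in all 4 pairs. Peaks of the trimmed WT lists were wider and more often covered 2 or more WT peaks, so these shares are not matched for width. Counted from the other list, 3008, 5033, 2919 and 4668 KO peaks lay on a WT peak in the 4 pairs. In the trimmed lists 3181, 5449, 3139 and 5294 peaks did. These shares are the background for what follows, since width, summit and rank can be read only where a KO peak was called.

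Where a KO peak lay on a WT peak, it was narrower in most pairs. At 2130 single pairs of WT 1 and KO 1 the median width was 1081 bp in WT 1 and 257 bp in KO 1. For WT 1 and KO 2 it was 899 and 293 bp over 3443 pairs. For WT 2 it was 824 against 257 bp over 2118 pairs with KO 1, and 700 against 295 bp over 3295 pairs with KO 2. The median ratio of KO to WT width was therefore 0.273, 0.377, 0.359 and 0.474 in these 4 pairs of lists. The KO peak was the narrower at 97.6%, 93.0%, 93.4% and 87.3% of positions. WT 2 peaks were also narrower than WT 1 peaks, with a median ratio of 0.833 over 9121 pairs, and 68.7% were narrower. KO 2 peaks were wider than KO 1 peaks, with a ratio of 1.17 over 1365 pairs. All 4 ratios between genotypes lay below both ratios within a genotype. The mean of the 4 ratios was 0.371. On the width above the shortest peak of each list, the mean ratio was 0.166, against 0.753 for WT 2 over WT 1.

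WT lists trimmed to the KO lengths hold the more significant and wider WT peaks. Against WT 1, the trimmed WT 2 lists gave median ratios of 0.798 and 0.800. Against WT 2, the trimmed WT 1 lists gave 1.10 and 1.14. The partner peaks in these controls had median widths of 702 to 1017 bp, whereas KO peaks in the same kind of pair measured 257 to 295 bp. Trimming leaves the width of each kept peak as called, so this control matches the number of peaks and says nothing of width at the KO depth. A WT library thinned to the KO depth was not analysed here.

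**Figure D1:**
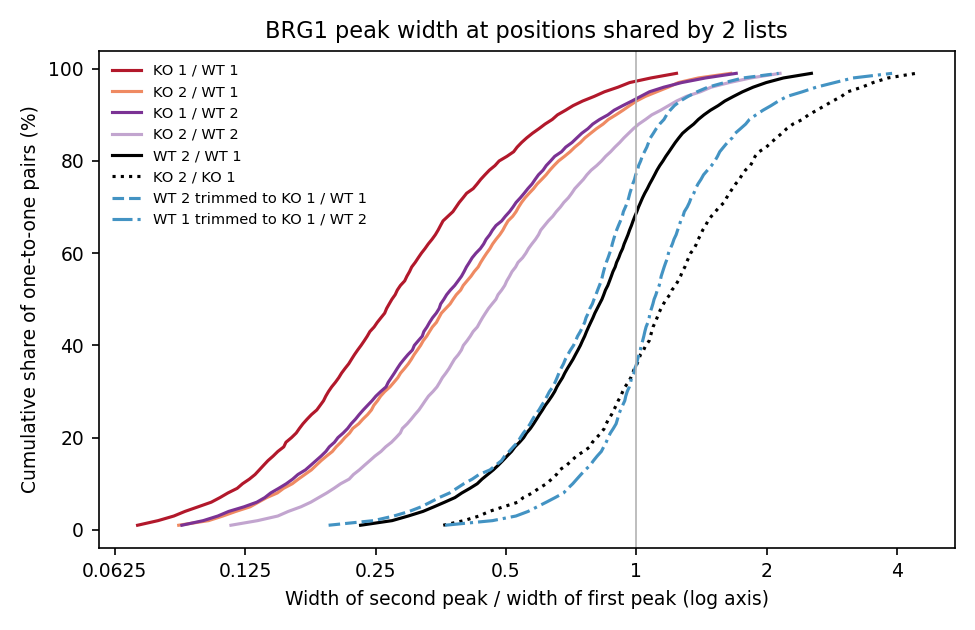
Cumulative share of single pairs (vertical, percent) by the ratio of the second peak's width to the first (horizontal, log axis) for the 4 KO-to-WT pairs, the 2 replicate pairs and 2 trimmed WT controls. The 4 KO-to-WT curves cross the middle at ratios of 0.273 to 0.474, left of WT 2 over WT 1 at 0.833 and KO 2 over KO 1 at 1.17.

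The ratio was lower for wider WT peaks, while the width of the KO peak changed little. Over WT peaks of up to 500 bp, KO peaks had median widths of 227 to 258 bp in the 4 pairs, and the ratio was 0.688 to 0.863. For WT peaks over 2000 bp the KO peaks measured 299 to 428 bp, and the ratio was 0.116 to 0.176. The ratio of WT 2 to WT 1 widths in the same classes of WT 1 width lay between 0.689 and 0.942. Wide WT peaks were also found more often. Of WT peaks over 2000 bp, 66.8% to 87.8% had a KO peak in the 4 pairs, against 2.22% to 9.89% of those up to 500 bp. Bases of shared WT peaks that lay under a KO peak came to 25.7%, 32.4%, 31.3% and 38.5%. WT 2 covered 70.6% of the bases of shared WT 1 peaks.

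KO peaks were also narrower than WT peaks of like significance. Among peaks with a −log10 p of 8 to 10, median widths were 380 bp in WT 1 and 367 bp in WT 2, against 256 bp in KO 1 and 286 bp in KO 2. At 12 to 15 they were 716.5 and 702 bp against 374.5 and 433 bp. The gap between genotypes grew with significance, and both KO medians lay below both WT medians in each of the 4 classes. Median summit counts in the class of 8 to 10 were 25 and 28 fragments in WT and 30 and 26 in the KO. At 6 to 8 they were 21 and 24 against 28 and 23, and at 12 to 15 they were 32 and 35 against 40 and 33. KO 1 was above both WT libraries in each class, and KO 2 lay between them in each class.

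**Figure D2:**
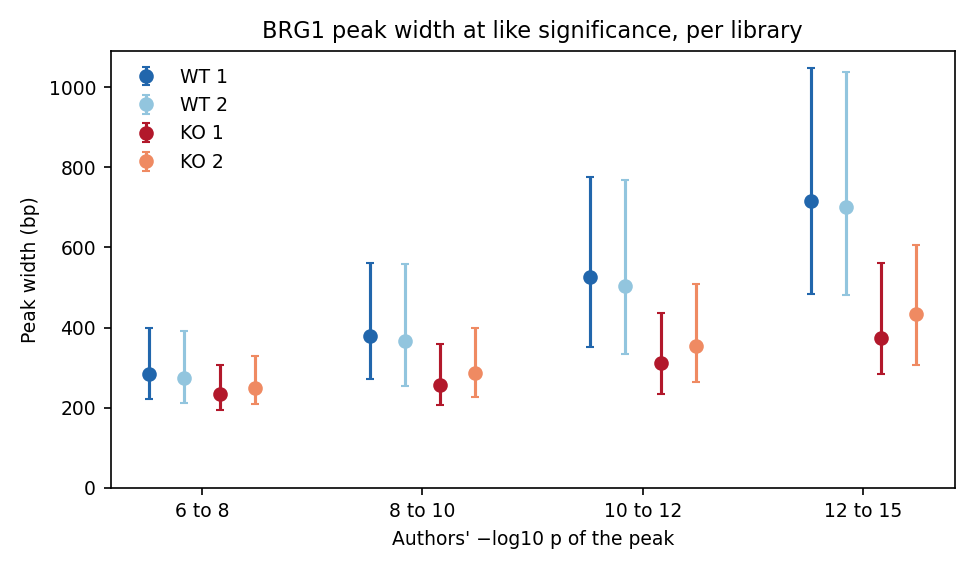
Median peak width in bp (points) with its quartiles (bars) in each BRG1 library, by class of the authors' −log10 p. From 8 to 10 the medians were 380, 367, 256 and 286 bp in WT 1, WT 2, KO 1 and KO 2, and from 12 to 15 they were 716.5, 702, 374.5 and 433 bp.

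The same comparison was made at loci with exactly 1 peak in each of the 4 libraries. There were 446 such loci, out of 1590 with a peak in all 4 lists. Median widths at these loci were 1069 bp in WT 1, 930 bp in WT 2, 274 bp in KO 1 and 329 bp in KO 2. The mean of the library medians was 999.5 bp ± 98.3 (SD, n = 2) in WT and 301.5 bp ± 38.9 (SD, n = 2) in the KO. The groups did not overlap, and an exact two-sided permutation test gave p = 0.33, the smallest value it can give. At 391 loci (87.7%) both KO peaks were narrower than both WT peaks, and at 3 loci both were wider. A region of a mark is a stretch of merged peaks with at least 1 peak of each of its 2 WT libraries. Of the 446 loci, 439 overlapped a WT hemogen region and 401 a WT H3K27ac region. Among all WT 1 peaks 85.0% overlapped hemogen and 47.2% H3K27ac, and among those with a KO peak 96.4% and 82.5%.

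Single loci show the size of the change. Positions are those of the authors' files, whose contig names and coordinates fit the mouse build mm10 (GRCm38). At chr3:101550204-101552396 the peak was 2145 bp wide in WT 1, 1858 bp in WT 2, 172 bp in KO 1 and 207 bp in KO 2. Its summits in WT 1 and KO 2 lay 3 bp apart, so the KO 2 peak sat at the top of the WT 1 peak. The KO 1 summit lay 229 bp from that of WT 1 and 226 bp from that of KO 2. The authors' fold there was 3.89, 4.16, 3.76 and 3.94, a narrow range at the locus with the strongest narrowing by this rule. At chr4:115093605-115097403 the widths were 3799 and 3214 bp in WT and 193 and 411 bp in the KO. The KO peaks there were 816 bp apart at their summits and marked separate places within 1 WT peak. At chr11:86756055-86757726 the peak was 1661 and 1599 bp wide in WT and 180 and 210 bp in the KO, with folds of 7.36 and 7.99 against 3.88 and 4.78. The other loci of the 5 with the strongest narrowing were chr14:55584602-55586833 and chr10:117709391-117711272, with WT widths of 1569 to 2215 bp and KO widths of 189 to 282 bp. All 5 overlapped hemogen and H3K27ac regions.

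The 3 loci that were wider in both KO libraries had short WT peaks. At chr14:20393196-20393803 the widths were 256 bp in WT 1, 312 bp in WT 2, 576 bp in KO 1 and 590 bp in KO 2. This locus overlapped a hemogen region and no H3K27ac region. At chr8:84832133-84832687 the widths were 192, 203, 260 and 213 bp, and at chr14:31781376-31781847 they were 196, 224, 240 and 226 bp. KO peaks of these last loci measured 213 to 260 bp, near or below the list medians, whereas those of the first were above them.

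Fragments at the summit differed less between genotypes than width did. Counts were unique in both lists at 1797 of the 2130 pairs of WT 1 and KO 1, 3032 of 3443 for WT 1 and KO 2, 1885 of 2118 for WT 2 and KO 1, and 3013 of 3295 for WT 2 and KO 2. Median counts were 38 in WT 1 and 29 in KO 1, and 35 in WT 1 and 25 in KO 2. They were 38 in WT 2 and 30 in KO 1, and 35 in WT 2 and 26 in KO 2. KO summits thus held fewer fragments, from libraries of 0.404 and 0.341 of the depth. Divided by the depth of the immunoprecipitate, KO summits were 1.98, 2.17, 2.06 and 2.26 times as high as their WT partners. WT 2 over WT 1 gave 0.963, and KO 2 over KO 1 gave 1.10. Median local background at these pairs, before division by depth, was 5.94 fragments in WT 1 and 5.34 in KO 1. It was 5.68 against 4.44 for WT 1 and KO 2, and 6.52 against 5.34 for WT 2 and KO 1. For WT 2 and KO 2 it was 6.28 against 4.44. Background thus also fell by less than depth, so these ratios do not measure height over local background. The depth-scaled values rest on an assumed form of the caller's p-value and fold, and on recovered rather than stated depth.

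The height of the WT summit went with whether a KO peak was called. Of WT peaks with 11 to 20 fragments at the summit, 0.651% to 2.88% had a KO peak in the 4 pairs. At 31 to 40 fragments the share was 19.5% to 35.2%, against 95.0% of WT 1 peaks found in WT 2. Of the 53 WT 1 peaks over 60 fragments, 51 (96.2%) were in KO 1 and 53 (100%) in KO 2, and of the 40 such WT 2 peaks, 38 (95.0%) were in each KO list. In this tallest class, where nearly all peaks had a partner, the depth-scaled ratio was 1.66, 1.92, 1.79 and 2.09. WT 2 over WT 1 was 0.840 there. The KO ratios were highest in the lowest class, at 2.57 to 3.08. Local background is not taken into account in these ratios. In the lower classes the median covers only the few WT peaks with a KO peak, which had to reach the KO calling level. The authors' group lists gave the same picture, with 1870 of 2035 WT peaks over 60 fragments (91.9%) found in the KO at a ratio of 1.83.

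**Figure D3:**
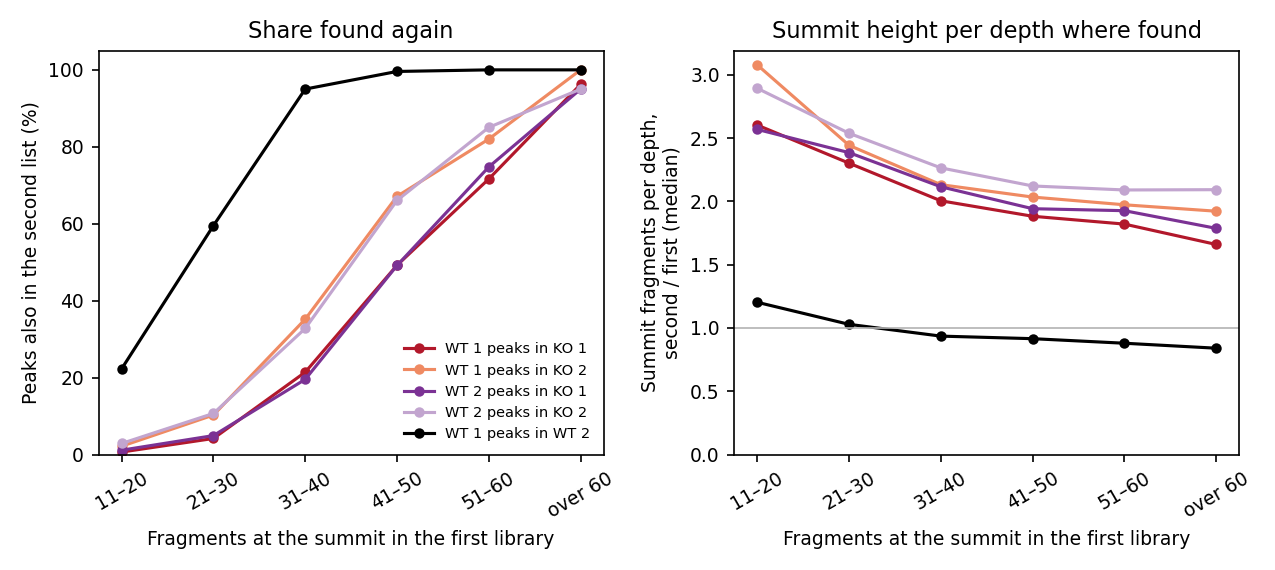
Left, share of peaks of the first library also in the second list (percent), and right, median ratio of summit fragments divided by depth (second over first), both by fragments at the summit in the first library. Shares in the KO rose from 0.651% to 2.88% in the lowest class to 95.0% to 100% over 60 fragments, and ratios in the KO ran from 1.66 to 3.08 where WT 2 over WT 1 ran from 0.840 to 1.20.

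Rank by fold did not carry over from WT to the KO. Both lists were ranked over the same single pairs, and list length still sets which pairs enter. Spearman's rho of fold across peaks was −0.121 for WT 1 and KO 1 (n = 2130), −0.0785 for WT 1 and KO 2 (n = 3443), −0.0679 for WT 2 and KO 1 (n = 2118) and −0.0359 for WT 2 and KO 2 (n = 3295). WT 1 against WT 2 gave 0.217 (n = 9121) and KO 1 against KO 2 gave 0.0781 (n = 1365). The trimmed WT controls gave 0.0781 and 0.0866 for WT 1 and 0.0549 and 0.0888 for WT 2. The value of 0.217 thus belongs to the full WT lists, and the contrast was smaller at like list length. Within a genotype the order was only weakly kept, and between genotypes it was not kept. The mean between genotypes minus the mean within was −0.224 (exact permutation over libraries, p = 0.33). A change of rank by over 25 percentiles was seen at 57.3% to 59.9% of the pairs between genotypes, 48.7% of WT pairs and 55.8% of KO pairs. In the trimmed WT controls it was seen at 52.5% to 53.6%. The points of each correlation share 2 libraries and their depths, and peaks are not independent replicates.

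The sign of rho differed with the length of the lists and with the value ranked. With WT lists trimmed to the KO length, the mean rho of fold over the 4 pairs was 0.0255, against 0.0907 in the trimmed WT control. By the authors' −log10 p, rho was 0.125, 0.184, 0.132 and 0.192 in the 4 pairs and 0.427 between the WT libraries. By fragments at the summit it was 0.662, 0.667, 0.667 and 0.652, against 0.730 between WT and 0.677 between KO libraries. The order of BRG1 peaks by fragments was therefore kept between genotypes nearly as well as within them. The order by fold over local background was only weakly kept within genotypes and not kept between them. Local background at the same pairs had a rho of 0.164 to 0.222 between genotypes, 0.278 between WT and 0.498 between KO libraries.

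Loci that changed most in rank of fold among the 446 illustrate this. At chr8:105636553-105638008 fold was 8.07 and 7.27 in WT and 3.35 and 3.33 in the KO, and the smallest fall over the 4 pairs was 73.3 percentiles. Summit fragments there were 44 and 49 in WT and 28 and 33 in the KO. At chr17:46855802-46858705 fold was 9.62 and 8.42 in WT and 3.72 and 3.97 in the KO, and the widths were 2306, 2904, 204 and 475 bp. In the other direction, at chr5:35105373-35105790 fold was 3.43 and 2.86 in WT and 6.06 and 5.73 in the KO, a smallest rise of 81.1 percentiles. Summit fragments were 30 and 30 in WT and 22 and 24 in the KO, and the widths were 390, 339, 211 and 205 bp. This peak rose in fold rank while it narrowed. All 5 loci with the largest falls were at least 872 bp wide in both WT libraries. Among the 5 with the largest rises, 9 of the 10 WT widths were 570 bp or less.

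Summits stayed near their WT position. The median distance between WT and KO summits at single pairs was 117.5, 119, 109.5 and 111 bp, against 98 bp between the WT libraries and 91 bp between the KO libraries. The trimmed WT controls gave 105 to 111 bp. Distances over 500 bp made up 5.16% to 8.59% between genotypes, 2.72% between WT libraries and 5.13% to 9.27% in the trimmed controls. The difference of the means between and within genotypes was 19.8 bp (exact permutation over libraries, p = 0.33). WT peaks with a KO peak were wider than those of the WT pair, and as a share of WT width the median distance was 0.119, 0.149, 0.152 and 0.173 in the 4 pairs against 0.191 for the WT pair. The trimmed WT controls of the same 4 lengths gave 0.101, 0.123, 0.121 and 0.150, each below its KO pair. At the 446 loci the median distance was 106.5 to 124 bp over the 4 pairs between genotypes, 119 bp between WT 1 and WT 2, and 110 bp between KO 1 and KO 2. Summits at the same loci therefore lay about as far apart between genotypes as between replicates.

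The short KO peak did not always hold the WT summit. KO summits lay inside the WT peak at 89.9% to 96.1% of pairs, whereas the WT summit lay inside the KO peak at 58.0% to 65.6%. Between the WT libraries the WT 1 summit lay inside the WT 2 peak at 79.2%. At 39 of the 446 loci (8.74%) every distance between genotypes was larger than both distances within a genotype. At chr14:55584602-55586833, also among the most narrowed, the KO summits lay 789 to 996 bp from the WT summits, and replicate summits lay 167 bp apart in WT and 40 bp apart in the KO. Its fold was 6.04 and 6.05 in WT and 5.03 and 8.18 in the KO. At chr5:115844133-115845719 the summits of the genotypes were 515 to 629 bp apart, with 12 bp between WT and 102 bp between KO summits. At chr6:39204905-39206700 they were 449 to 523 bp apart, with 71 and 3 bp within genotypes, and the widths of 1747, 1757, 830 and 1054 bp were above the KO medians in both KO libraries. All 5 loci named for summit position overlapped hemogen and H3K27ac regions, as did 439 and 401 of all 446 loci.

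Hemogen and H3K27ac summits of WT liver gave a fixed reference. At the 446 loci the median distance to the nearest summit of hemogen library 2 was 184 bp in WT 1, 192 bp in WT 2, 201.5 bp in KO 1 and 206 bp in KO 2. To hemogen library 1 it was 201, 195.5, 216 and 199.5 bp, and here KO 2 lay between the WT values. To the nearest summit of H3K27ac library 2 the distance was 151 and 147 bp in WT and 119.5 and 133 bp in the KO. To H3K27ac library 1 it was 145.5 and 136.5 bp in WT and 135.5 and 127 bp in the KO. The KO medians were farther from hemogen without overlap for 1 of the 2 hemogen libraries, and nearer to H3K27ac without overlap for both H3K27ac libraries. Shares within 100 bp of H3K27ac library 2 were 37.4% and 38.6% in WT and 42.4% and 40.4% in the KO. For H3K27ac library 1 they were 39.9% and 40.8% in WT and 38.3% and 40.8% in the KO, which were not higher. Quartiles of these distances ran from 50 to 458.25 bp, so the differences between medians were small beside the spread over loci.

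Medians over all single pairs had the same directions, by a near-even count of peaks. In all 8 combinations of a pair of lists with a hemogen library, the KO median was the farther, for example 213.5 bp in WT 2 and 240.5 bp in KO 1 to hemogen library 1. In all 8 combinations with an H3K27ac library the KO median was the nearer, for example 162.5 bp in WT 1 and 130 bp in KO 1 to H3K27ac library 2. The KO summit was the farther from hemogen at 51.5% to 54.3% of pairs and the closer to H3K27ac at 52.0% to 54.9%. Between WT 1 and WT 2 the medians were 188 and 187 bp and 167 and 165 bp to hemogen, and 241 and 250 bp and 301 and 305 bp to H3K27ac. The 4 pairs of lists reuse 4 libraries, so the combinations are not independent. Hemogen was precipitated through an HA tag from livers labelled WT, and hemogen and H3K27ac in KO liver were not analysed here.

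Narrowing was stronger where WT liver carried H3K27ac. Of the single pairs, 82.0% to 87.5% had a WT peak overlapping an H3K27ac region, against 55.2% of the pairs of WT 1 and WT 2. With H3K27ac the median width ratio was 0.260, 0.350, 0.344 and 0.443, and without it was 0.401, 0.543, 0.537 and 0.684. WT peaks with H3K27ac were wider, at 785 to 1142.5 bp against 392 to 572 bp, and KO peaks measured 264 to 305 bp with the mark and 223 to 248 bp without. For WT 2 over WT 1 the ratio was 0.833 with and without H3K27ac. Width and the mark move together in WT, and their separate parts in the narrowing were not tested. Hemogen regions overlapped the WT peak at 96.0% to 98.2% of the pairs, which left 39 to 138 pairs without hemogen. At these the width ratio was 0.611, 0.722, 0.952 and 1.02, where WT peaks measured 239.5 to 429.5 bp.

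Part of the WT peaks broke up into several KO peaks. A split is counted where 1 WT peak overlapped 2 or more peaks of the other list. Of shared WT peaks, 13.9% of WT 1 peaks were split in KO 1 and 14.9% in KO 2, and 12.4% of WT 2 peaks were split in each KO list. In the control pair, 20.9% of shared WT 1 peaks were split in WT 2, above the KO values, and 11.8% of shared WT 2 peaks were split in WT 1, just below them. KO 1 peaks were split in KO 2 at 4.23%. Against trimmed WT lists the split share was 4.98% and 8.05% for WT 1 and 1.43% and 2.90% for WT 2. Splitting in the KO was thus above that in a WT list of like length in all 4 pairs, and below that in the full WT list for WT 1 peaks only. Trimmed lists keep the wider WT peaks and lack the weaker ones. Their split shares therefore do not measure splitting at the KO depth. The mean over the 4 pairs was 13.4%, and it was 5.36% at a minimum −log10 q of 5, against 16.01% for WT 1 in WT 2. In the authors' group lists it was 25.7%. With the WT lists trimmed, so that both lists hold the same number of peaks, the mean share was 20.4% in the KO against 10.3% in the control.

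Splitting grew with WT width in every comparison. In the class over 1000 and up to 2000 bp, 14.1% to 22.6% of shared WT peaks were split in the KO, 48.1% of WT 1 peaks in WT 2, and 2.95% to 10.5% in the trimmed WT lists. For WT peaks over 2000 bp the shares were 39.7% to 57.0%, 76.5% and 8.30% to 35.2%. The gap between neighbouring pieces had a median of 195, 206, 176.5 and 191 bp in the 4 KO pairs, 125 bp in WT 2, and 107.5 to 123 bp in the trimmed controls. Pieces in the KO thus lay farther apart than pieces in WT. The reverse, 1 KO peak over 2 or more WT peaks, was seen for 2.13%, 3.62%, 3.63% and 6.02% of shared KO peaks, against 11.8% of shared WT 2 peaks over WT 1 and 18.3% to 39.5% in the trimmed controls.

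**Figure D4:**
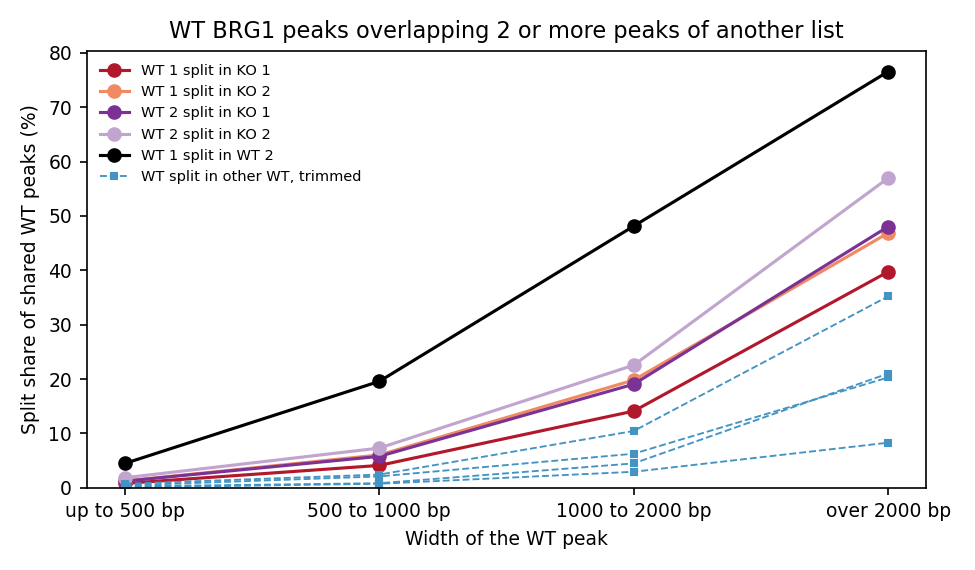
Share of shared WT peaks (percent) that overlapped 2 or more peaks of the other list, by class of WT peak width, for the 4 KO pairs, WT 1 in WT 2, and the 4 trimmed WT controls. Over 2000 bp the KO shares of 39.7% to 57.0% lay between WT 1 in WT 2 at 76.5% and the trimmed controls at 8.30% to 35.2%.

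Regions with several KO peaks recurred in both KO libraries. Of 13213 WT regions with a peak in both WT lists, 1594 had a peak in both KO lists, and 186 of these (11.7%) held 2 or more peaks in both. In 47 of them each WT library had a single peak, and the rest already had several peaks in at least 1 WT library. This count has no WT control. At chr7:16400146-16403979 a single peak of 3834 bp in WT 1 and 3727 bp in WT 2 faced 4 peaks of 230 to 453 bp in KO 1 and 4 peaks of 198 to 250 bp in KO 2. At chr8:122282393-122288853 WT 2 had 1 peak of 6301 bp and WT 1 had 3 peaks of 905 to 3973 bp, where each KO list had 5 peaks, none above 1533 bp. At chr10:81134045-81137350 WT 2 had 1 peak and WT 1 had 2, with the widest at 2910 bp, and each KO list had 4 peaks of 203 to 818 bp. At chr5:137287215-137291312 there were 3 and 1 peaks in WT, with a single one of 4037 bp in WT 2, against 4 and 5 peaks in the KO. At chr19:5841762-5849698 the number of peaks did not differ, with 5 and 6 in WT and 6 and 6 in the KO, but the widest peak was 4345 and 5512 bp in WT and 591 and 968 bp in the KO. All 5 regions overlapped hemogen and H3K27ac regions, as did 96.4% and 82.5% of WT 1 peaks with a KO peak. Shares over the 13213 regions were not computed.

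Clustering of WT peaks with a KO peak along chromosomes fell once shared partners were set aside, which lowers it by design. Clustering was measured as the odds ratio of a WT peak having a KO peak when the previous WT peak, at most 100 kb away, had one, over 10 strata of WT −log10 p. It was 1.40 for WT 1 in KO 1, 1.56 for WT 1 in KO 2, and 1.64 for WT 2 in each KO list. The share found was 12.1% after a found peak and 9.78% after one not found for WT 1 in KO 1, and 25.8% and 19.0% for WT 2 in KO 2. WT 1 in WT 2 gave 1.42 and WT 2 in WT 1 gave 1.55. The trimmed WT controls gave 2.62 to 6.21. The odds ratios of the KO pairs were close to those of the full WT lists and below those of the trimmed lists.

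Neighbours that lie under 1 and the same partner peak are found together by construction. There were 64 to 288 such neighbours among 17781 to 22823 in the KO pairs and 703 to 2469 in the trimmed controls. Leaving these neighbours out removes only cases where both were found, which by itself lowers the odds ratio. Without them the odds ratio was 1.04, 1.15, 1.14 and 1.10 in the KO pairs, 1.03 and 1.06 between full WT lists, and 1.02 to 1.15 in the trimmed controls. With strata for the strength of both neighbours as well, it was 1.19, 1.35, 1.22 and 1.16 in the KO pairs, 1.03 and 1.05 between full WT lists and 1.12 to 1.22 in the trimmed ones. Set beside its own control of like length, the last value was higher in 3 of the 4 KO pairs, with 1.35 against 1.15 for WT 1 in KO 2 as the widest difference, and lower in WT 2 in KO 2. With strata for H3K27ac added it was 1.15, 1.28, 1.15 and 1.18 in the KO pairs against 1.18, 1.23, 1.28 and 1.31 in these controls, so that only WT 1 in KO 2 was higher. By distance, without shared partners, the odds ratio in the KO pairs ranged from 0.689 to 1.27 over gaps from under 1 kb to 1000 kb, and in the controls from 0.732 to 1.32. No distance stood out in all 4 pairs.

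**Figure D5:**
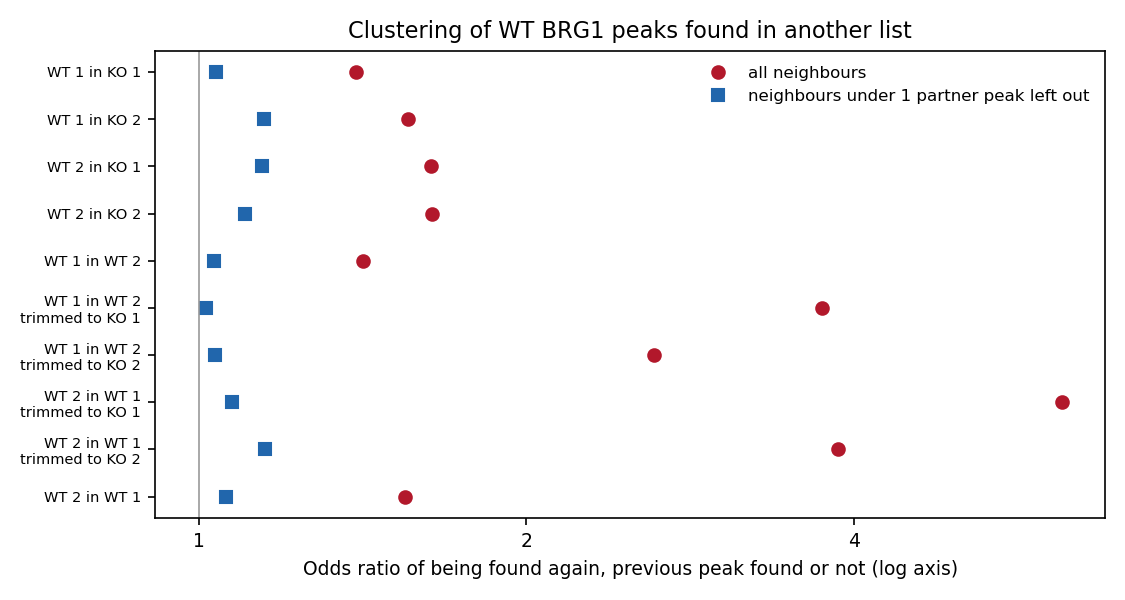
Odds ratio (log axis) of a WT peak being found in the other list when the previous WT peak within 100 kb was found, for the 4 KO pairs and the WT controls, with all neighbours (circles) and without neighbours under 1 partner peak (squares). Circles lie at 1.40 to 1.64 in the KO and up to 6.21 in trimmed WT lists, and squares at 1.02 to 1.15 in all comparisons.

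Runs of WT peaks describe the lists by position. Consecutive WT 1 peaks with a peak in either KO library formed 4282 runs of 1.26 peaks on average, and 79.5% were a single peak. Such peaks made up 20.5% of all WT 1 peaks. Run lengths expected from this share alone were not computed, so these values do not measure clustering. The longest held 7 peaks at chr8:84686792-84707459, all of them in WT 2, with 3 peaks in KO 1 and 6 in KO 2. Its WT 1 peaks had a median width of 830 bp and 39 fragments at the summit, and 6 of the 7 overlapped H3K27ac, near the share of 82.5% among all WT 1 peaks with a KO peak. Runs of 6 and 5 peaks lay at chr2:153455069-153520780 and chr1:91297801-91413427, with median widths of 857.5 and 825 bp. In WT 2 the longest such run held 9 peaks.

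The longest runs without a KO peak had median summits slightly below the WT 1 list median. The longest in WT 1 spanned 207 kb at chr13:23556350-23763602 with 55 peaks, whose median width was 350 bp and median summit 22 fragments. Its median −log10 p of 8.45 was above the medians of 8.23 over all WT 1 peaks and 7.57 over those without a KO peak, and its peaks reached 2496 bp. Of the 55, 28 were found in WT 2, 47 overlapped hemogen and 6 overlapped H3K27ac. Over all WT 1 peaks without a KO peak, 82.1% overlapped hemogen and 38.1% H3K27ac. The next runs held 34 peaks at chr13:21714753-21936778, with 21.5 fragments and 22 found in WT 2, and 30 peaks at chr17:35824538-36042942, with 22 fragments and 14 found in WT 2. Their median −log10 p was 7.99 and 7.97. WT 2 trimmed to the KO 1 and KO 2 lengths also held few peaks of these runs. It held 4 and 9 of the 55, 1 and 5 of the 34, and 5 and 6 of the 30. Over all WT 1 peaks the trimmed lists held 14.0% and 22.8%. Median summits in the 3 runs were below the list median of 24, and those in the runs with KO peaks were 28 to 39. The median summit over all WT 1 peaks without a KO peak was not computed. The KO group list, which the authors called over both KO libraries, had 4, 4 and 10 peaks in the 3 runs and overlapped 3, 3 and 6 of their WT 1 peaks. These stretches were therefore not empty of BRG1 peaks in the KO.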

How the data were processed

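BRG1 immunoprecipitates of WT and hemogen KO mouse fetal liver were compared through their deposited peak lists. Per the submitters' processing notes, the tools were MACS2 2.2.7.1, Picard 2.21.4, SAMtools 1.9 and Bowtie2 2.3.5, whose roles are not stated there. The genome build, the filters on reads and the input behind each list are not given in these sources. The labels' protocols describe tagmented and ligated libraries without saying which served each sample. The deposited lists, 1 per library and 1 per group, give for each peak the authors' fold (a ratio over the local background), −log10 p-value, −log10 q-value and summit offset. The smallest −log10 q in the BRG1 library lists lay between 1.31 and 1.35.

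Peaks on 19 autosomes and chromosome X were kept. Positions are 1-based. Peaks overlapping by at least 1 bp were shared. Clustering was a Mantel-Haenszel odds ratio with 10 strata of −log10 p and neighbours at most 100 kb apart. Fragment counts and depth were recovered by taking p as an upper Poisson tail and fold as height plus 1 over background plus 1, an assumption about the caller. Depth was taken from the lowest recurring background divided by the shortest peak width of each list, a further assumption. Values were computed in Python 3.11.15 with pandas 2.3.3, NumPy 2.4.6 and SciPy 1.17.1 and drawn with Matplotlib 3.10.9. The width ratio, summit distance, split share, rho, odds ratio over all neighbours and recovery of fragment counts were tested on simulated data. Other measures, such as relative depth and odds ratios without shared partners, were not.

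Loci were named by rule: the 5 most narrowed, widened, moved, fallen and risen among loci with 1 peak in all 4 libraries, the 5 regions with most KO peaks, and the 3 longest runs of each kind. The members, rules and lists were chosen with earlier results of these data known. No mouse genome or annotation was used, so regions carry no gene names or sequences and the gene lists meant for them were not counted. The alternatives were another pairing of peaks, an overlap of 50% of the shorter peak, a minimum −log10 q of 5, trimmed lists, group lists, each library left out, same-numbered pairs only, and other scales, gaps and strata.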

Additional observations from a re-analysis of the deposited data

Results flagged for a closer look

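Peaks outside the chromosomes compared were found on an unplaced sequence in the KO and not in WT. KO 1 had 4 BRG1 peaks and KO 2 had 10 on Un_JH584304, where both WT BRG1 libraries had 0. These peaks were 242 to 268 bp wide in KO 1 and 194 to 288 bp in KO 2, with the authors' fold reaching 3.19 and 5.17. The WT lists held 1 and 2 peaks on other unplaced sequences.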

How the results depend on the processing

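The mean over the 4 pairs was −0.0759 for rho of fold, 0.371 for the width ratio, 114.25 bp for summit distance, 13.4% for splitting and 1.56 for the clustering odds ratio. Leaving out 1 library gave ranges of −0.0998 to −0.0519, 0.316 to 0.426, 110.25 to 118.25 bp, 12.4% to 14.4% and 1.48 to 1.64. The width ratio kept its direction under all 11 alternatives, and moved beyond the spread of pairs only as width above the shortest peak (0.166). With WT lists trimmed, rho became 0.0255, summit distance 123.5 bp, splitting 20.4% and the odds ratio 1.11. A minimum −log10 q of 5 gave −0.143, 124.25 bp and 5.36% for rho, distance and splitting. The group lists gave 97.0 bp, 25.7% and 1.32 for distance, splitting and clustering. Ranking by −log10 p or by summit fragments turned rho to 0.158 and 0.662, both chosen after seeing the data. Taking the partner with the largest overlap gave a summit distance of 145.1 bp, and as a share of WT width it was 0.148. The odds ratio was 1.13 at an overlap of 50%, 1.68 at a gap of 25 kb, 1.40 without strata, and 1.11 and 1.23 without neighbours under 1 partner peak, the last with strata of both strengths (both added after seeing the data). The cause of these moves was not tested. With the replicate block, that is same-numbered pairs only, the values were −0.0786, 0.373, 114.25 bp, 13.2% and 1.52. Deviations of same-numbered libraries had a correlation of 0.00203 for width and 0.0567 for fold over the 446 loci, so the numbers were not treated as pairing. Depth in the KO limits which WT peaks could be seen there, so a WT peak with no KO peak is one not called, not one shown to be unbound.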

Other observations

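Chromosome X stood below the autosomes in the share of WT peaks with a KO peak. For WT 1 it was 4.48% in KO 1 and 10.9% in KO 2 over 402 peaks, against 9.98% and 16.8% on autosomes, whose own range was 8.49% to 12.2% and 13.9% to 18.7%. For WT 2 it was 5.17% and 14.1% over 290 peaks, against 12.5% and 20.5%. In the trimmed WT controls X was also low, at 3.23% and 5.72% against 14.2% and 23.1% for WT 1, and 4.14% and 12.8% against 22.7% and 36.0% for WT 2. WT peaks on X had a median width of 298 bp in WT 1 and 262.5 bp in WT 2.

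Among autosomes, chromosome 11 held the top share in 3 of the 4 pairs and chromosome 19 in the other. None of these shares was tested.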
